A study of Sus scrofa with 4 samples.

Results

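The genes of the cytosolic ribosomal proteins were described in the heart of minipigs with myocardial infarction (MI). They were chosen by name: every gene whose single symbol in the platform annotation starts with RPL or RPS and a digit, together with RPLP0, RPLP1, RPLP2 and RPSA, and without the RPS6K kinases. This gave 64 genes, 38 named RPL and 26 named RPS, among the 6765 genes with a probe set of a single symbol. They have 96 probe sets. Each gene was read from its probe set with the highest mean log2 signal, and the other 32 probe sets served as a check. The set also takes in RPL7L1, RPL22L1, RPL26L1, RPL36AL and RPS27L, which are paralogs of ribosomal protein genes, and RPS19BP1, whose product binds RPS19 and is no subunit of the ribosome. Of the 84 pig genes in RefSeq that meet the same naming rule, the other 20, such as RPL10, RPL18 and RPS3, were not analysed here.

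RNA of the border zone and of the infarct zone was measured on Affymetrix Porcine Genome Arrays after myoblast transplantation and in control tissue, with 1 array for each of the 4 conditions. The animals were female Chinese Bama minipigs of 4 months with MI made by ligation of the left circumflex coronary artery, and the myoblast group received 50000000 human skeletal myoblasts in 5 mL of DMEM by 10 injections after a dose of cyclosporin A of 5 mg/kg. The study sets the myoblast arrays against its control treatment group, whose minipigs were given DMEM and cyclosporin A at the same dose. The labels instead call the control tissue untreated, which would fit a further MI group that was given neither. Under the labels' wording, effects of injection and of cyclosporin A could not be told apart from those of the myoblasts. Neither the labels nor the methods state how many of the 6 minipigs of a group stand behind an array or when the tissue was taken. In the absence of replicates the values below carry no error, and no difference was tested against the spread of animals. The arrays carry pig probes and give no separate value for transcripts of the grafted human cells.

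Each cytosolic ribosome is built of a small subunit, which reads the mRNA, and a large subunit, which joins the amino acids. Both consist of ribosomal RNA and of proteins, most of which are needed in equal numbers. The mRNAs of these proteins carry a tract of pyrimidines at their start, through which their translation is controlled together by growth signals. Cardiac muscle that grows under load makes more ribosomes, and loss of single ribosomal proteins underlies Diamond-Blackfan anaemia.

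Signals are given in linear MAS 5.0 units and differences on the log2 scale of the deposited values. The 4 arrays had been scaled to a trimmed mean of about 500.1 units, and their median signals lay between 137 and 142 units. The tissue carried the signal of heart muscle: all 12 of the cardiomyocyte markers measured, of 15 listed, lay above the median of every array. Of the skeletal muscle markers 1 of the 6 measured did. In both zones 3 of these 6 were lower with myoblasts and 0 higher, against 29.7% and 30.7% of all probe sets. In the border zone 1 was at least 2-fold higher and 3 lower, beside 2400 and 2511 of all 24123 probe sets. In the infarct zone 2 were higher and 3 lower, beside 2541 and 2312 of all probe sets. MYOD1 and MYF5, the defining genes of myoblasts, had signals of 2.18 to 45.3 units. These lie under the array medians, so their own direction was not read, though the counts above take them in. The summed signal of the cardiomyocyte markers was 226129 and 241490 units with myoblasts in the border and infarct zone against 259948 and 300363 units in control. The RNA was amplified with a 3′ kit, so the signals of rRNA control probe sets were not read as amounts of rRNA. A 28S rRNA control probe set had log2 signals of 13.05 and 13.32 with myoblasts and 13.94 and 13.96 in control. The 5S rRNA probe set had 136 and 205 units with myoblasts against 168 and 159 units in control. The brighter 18S rRNA control probe set had 9611 and 9922 units with myoblasts against 12079 and 11563 units in control, whereas a dimmer 18S rRNA probe set lay between 969 and 1180.0 units on all 4 arrays. The part of these control probe set differences in the values below was not tested.

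The ribosomal protein genes were among the brightest features of the heart arrays. Of the 64 genes, 61 lay above the median on all 4 arrays, 58 had a mean signal of at least 2048 units, a log2 signal of 11, and 53 of at least 8192 units, a log2 signal of 13. Only 397 of the 24123 probe sets, or 1.65%, reached 8192 units, and 57 of these 397, or 14.4%, were probe sets of ribosomal protein genes. The 64 genes together held 5.31% of the summed signal of the myoblast border array, 5.20% of the myoblast infarct array, 5.22% of the control border array and 5.57% of the control infarct array. Their share of the signal thus stayed within a narrow range, with the control infarct array at its upper end. The exceptions in brightness were RPL30, RPL26 and RPS15A, which lay under the median on all 4 arrays.

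Ribosomal protein signals differed little between the 4 conditions. For the 61 genes above the array medians, the highest of the 4 signals was 1.03 to 1.38 times the lowest, with a median of 1.17. The steadiest was RPS15, a protein of the small subunit's head chosen here after its values were seen, with 15590.0 units with myoblasts against 15069 in control at the border, and 15464 against 15296 units within the infarct. The widest range among them was that of RPS27L, the paralog of RPS27. For the 53 genes of at least 8192 units, all stayed within 1.5-fold over the 4 arrays, whereas 253 of the 340 other probe sets of that brightness, or 74.4%, did so. Their largest range was 1.34-fold, in RPS20, and the median range of the other probe sets was 1.32-fold.

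**Figure D1:**
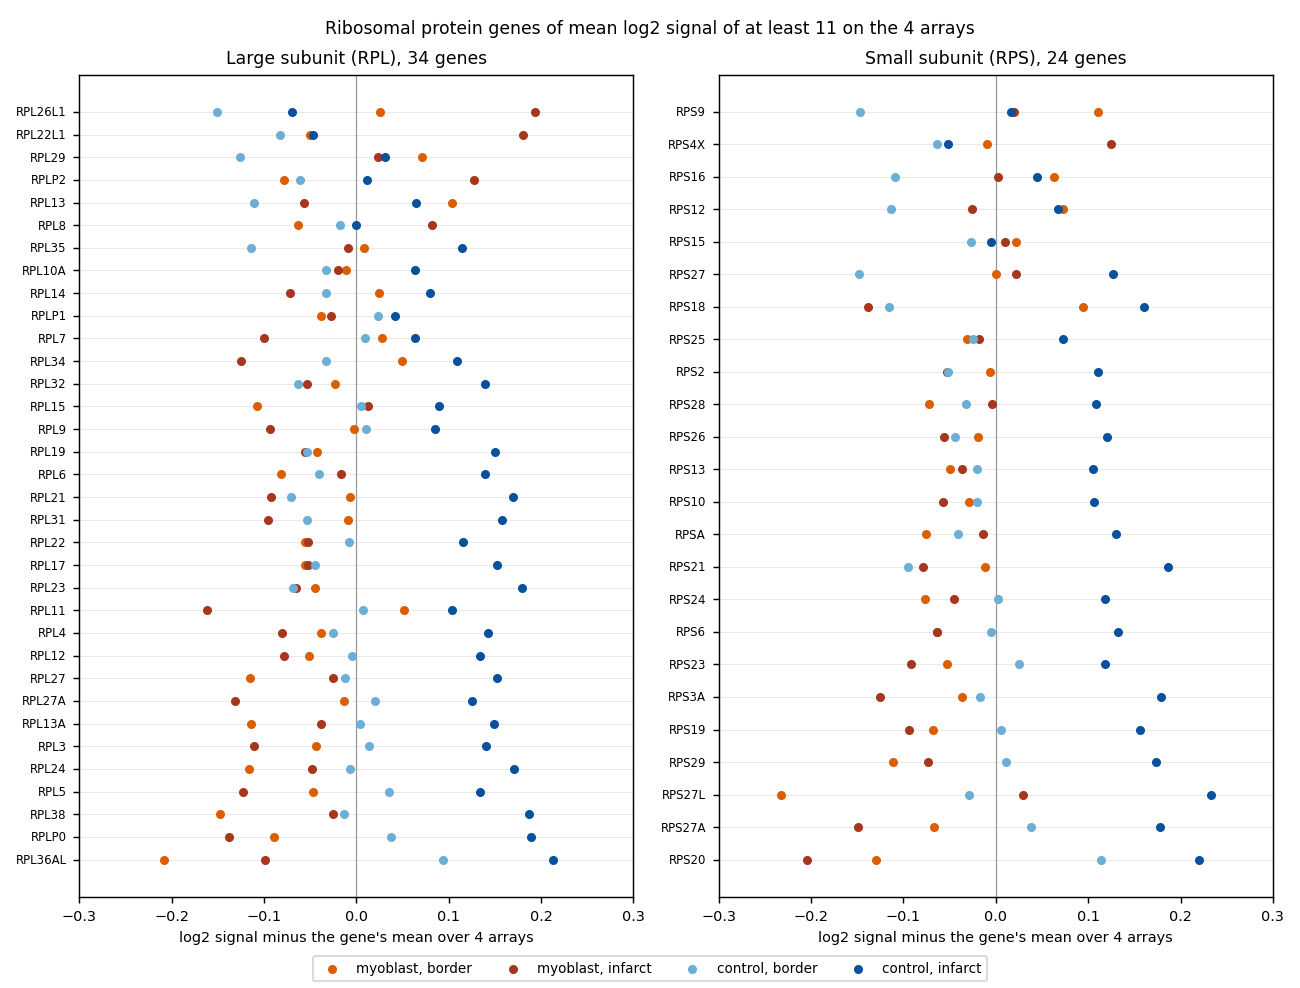
Log2 signal of each of the 58 ribosomal protein genes of at least 2048 units on the 4 arrays, minus the gene's own mean over the arrays (horizontal axis), with large subunit names on the left and small subunit names on the right, sorted by the mean log2 ratio of myoblast over control. Most genes have the control infarct array (dark blue) farthest to the right as deposited, and all points lie within 0.3 of the gene's mean.

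The comparison of myoblast with control tissue asks whether transplantation changed these genes. In the mean over both zones, 2 of the 64 genes were at least 2-fold apart, the threshold of the study's methods, against 15.5% of all probe sets and 2.7% of those of at least 2048 units. RPS15A, a small subunit protein, was at least 2-fold higher in this mean with 32.9 and 33 units on the border and infarct myoblast arrays and 6.12 and 37 units on those of control. RPL30, a large subunit protein, was at least 2-fold lower with border zone signals of 9.07 units with myoblasts and 105 units in control, and infarct zone signals of 54.5 and 84.5 units. Both are dim, and their ratios rest on 1 array each: the low value of RPS15A on the control border array and the low value of RPL30 on the myoblast border array. The other 62 genes were within 1.5-fold in each zone.

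**Figure D2:**
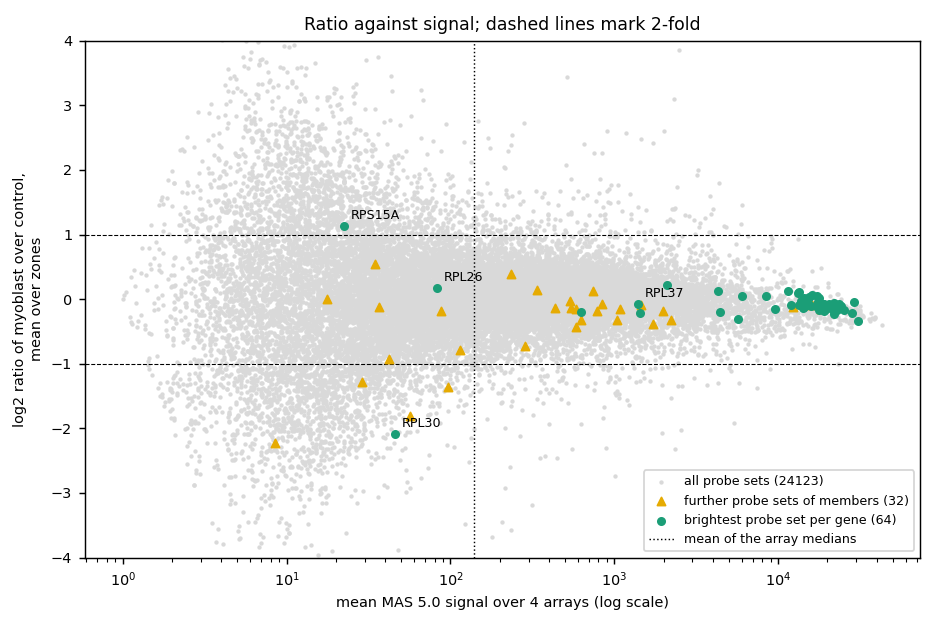
Mean log2 ratio of myoblast over control over both zones (vertical axis) against the mean signal over the 4 arrays on a log scale (horizontal axis), for the brightest probe set of each of the 64 genes (green), their 32 further probe sets (yellow triangles) and all 24123 probe sets (grey). The genes gather at high signal near a ratio of 0, and those past the dashed lines at 2-fold, RPL30, RPS15A and 4 further probe sets, lie under the array medians (dotted line).

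As deposited, the ribosomal protein genes were slightly lower with myoblasts for the infarct zone and showed almost no shift for the border zone, but the sign of this shift depends on how the arrays are scaled. The median log2 ratio of the 64 genes was -0.18 for the infarct zone and -0.01 for the border zone, and -0.10 in their mean, while the median of all probe sets was 0.01, 0.0018 and 0.01. In the infarct zone 57 of the 64 genes were lower with myoblasts, against 49.2% of all probe sets and 84.4% of the probe sets of at least 8192 units. In the border zone 37 were lower, against 49.7% and 70.8%. The 340 other probe sets of at least 8192 units had medians of -0.23 for the infarct zone and -0.15 for the border zone, so that a lower signal on the myoblast arrays was not particular to ribosomal proteins. After quantile normalization the median of the genes was 0.01 for the infarct zone and 0.06 for the border zone, with 35 and 50 genes higher. Centring each array on the other probe sets of at least 8192 units, which moved the median of all probe sets by up to 0.19, gave 0.01 and 0.10, and centring on the array medians gave -0.23 and -0.02. As these are bulk tissues, fewer cells of a type and less RNA per cell cannot be told apart. The cardiomyocyte markers were lower in both zones for 10 of 12 genes. Of all probe sets 29.7% were so, and 66.2% of those of at least 8192 units. In the other direction 1 marker was higher in both zones, against 30.7% and 11.1%. In each zone 1 marker was at least 2-fold higher, beside 2400 (border) and 2541 (infarct) of all 24123 probe sets, and none was 2-fold lower. The 12 cardiomyocyte markers had median log2 ratios of -0.23 for the border zone and -0.36 for the infarct zone. They were thus lower beside the deposited ribosomal protein values in the infarct zone, and also in the border zone, where the ribosomal protein median was near 0. Their part in these values was not tested. Control probe sets at the 3′ and 5′ ends of a transcript also differed. For EF1A the log2 ratios in the border and infarct zone were -0.10 and -0.23 at the 3′ end and 0.37 and 0.50 at the 5′ end. A GAPDH set had -0.20 and -0.41 against -0.36 and -0.26, and an actin set 0.15 and -0.16 against 0.17 and 0.76. Other control sets for actin and GAPDH are not given here. The part of these differences, or of RNA integrity, was not tested.

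**Figure D3:**
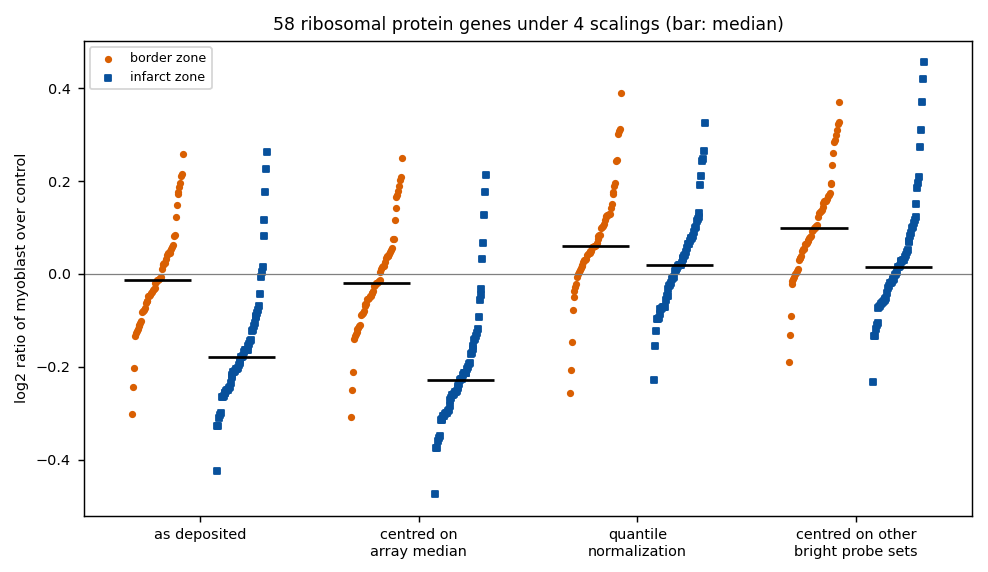
Log2 ratio of myoblast over control (vertical axis) of the 58 genes of at least 2048 units in the border zone (orange circles) and the infarct zone (blue squares) under 4 scalings of the arrays, each set sorted by value, with bars for medians. The infarct zone medians lie near -0.2 as deposited and after centring on the array medians, and just above 0 under quantile normalization and after centring on other bright probe sets.

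The order of the zones was the same in the medians under all 4 scalings. The ratio of myoblast over control was lower in the infarct than in the border zone for 56 of the 64 genes as deposited, against 48.5% of all probe sets and 63% of those of at least 8192 units, with a median difference of -0.17. Over the 340 other probe sets of at least 8192 units the median difference was -0.04. That of the genes had a median of -0.21 after centring on the array medians, -0.09 after centring on other bright probe sets and -0.05 after quantile normalization, with 58, 48 and 41 genes below 0. The share of all probe sets below 0 under these scalings was not counted. Of the 53 genes of at least 8192 units, 50 were on this side as deposited. Since each zone has a single array per treatment, this difference was not tested. The fibroblast and matrix markers, 8 of 10 measured and 7 of them above the median of every array, had the same order of zones, with median log2 ratios of 0.34 for the border zone and -0.36 for the infarct zone. Their summed signal was 103101 and 64246 units with myoblasts in the border and infarct zone against 78467 and 77740 units in control. The 7 macrophage and leukocyte markers measured, of 10 listed, had medians of 0.65 and 0.48. Of these 7, 3 lay above the median of every array. The 6 endothelium markers had 0.27 and 0.49, with 5 above the median of every array. In each of these 2 lists 4 markers were higher in both zones, against 30.7% of all probe sets. The part of these markers in the ribosomal protein values was not tested.

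In direction, 35 genes were lower with myoblasts in both zones as deposited, against 29.7% of all probe sets and 66.2% of those of at least 8192 units, and 5 were higher in both, against 30.7% and 11.1%. Of the other 24 genes, 22 were higher for the border zone and lower for the infarct zone and 2 the reverse, RPLP2 and RPL8 (the last chosen after its values were seen). Quantile normalization turned these counts to 11 lower and 32 higher in both zones. Under all 4 scalings 12 genes had a direction that was alike in both zones, 9 of them lower and 3 higher. The share of all probe sets with such a direction, or after quantile normalization alone, was not counted. The 12 genes thus cannot be set against a background. The 9 lower ones were RPS20, RPS27L, RPS29, RPLP0, RPL38, RPL36AL, RPL7L1, RPS19BP1 and the dim RPL30, and the 3 higher ones were RPS4X, RPL22L1 and RPL26L1. Centring an array leaves the differences between genes as they are, whereas quantile normalization changes them.

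Across the 58 genes of at least 2048 units, the ratios of both zones, which come from separate pairs of arrays, had a Pearson correlation of 0.43 and a Spearman correlation of 0.38, while the 1786 other probe sets of that brightness gave 0.67 and 0.62. Relative to the median of the 58 genes in each zone, 18 were above it in both zones and 18 below it in both. At 0.1 or more, 4 genes were above in both zones, namely RPS9, RPL29, RPS16 and RPL26L1, and 3 were below, namely RPS20, RPL36AL and RPLP0. The shares of other probe sets on the same side of their own median in both zones were not counted. These counts thus have no background. Under quantile normalization the genes above were RPL26L1, RPL29, RPS4X and RPS9, and those below were 2, RPL36AL and RPS27L.

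**Figure D4:**
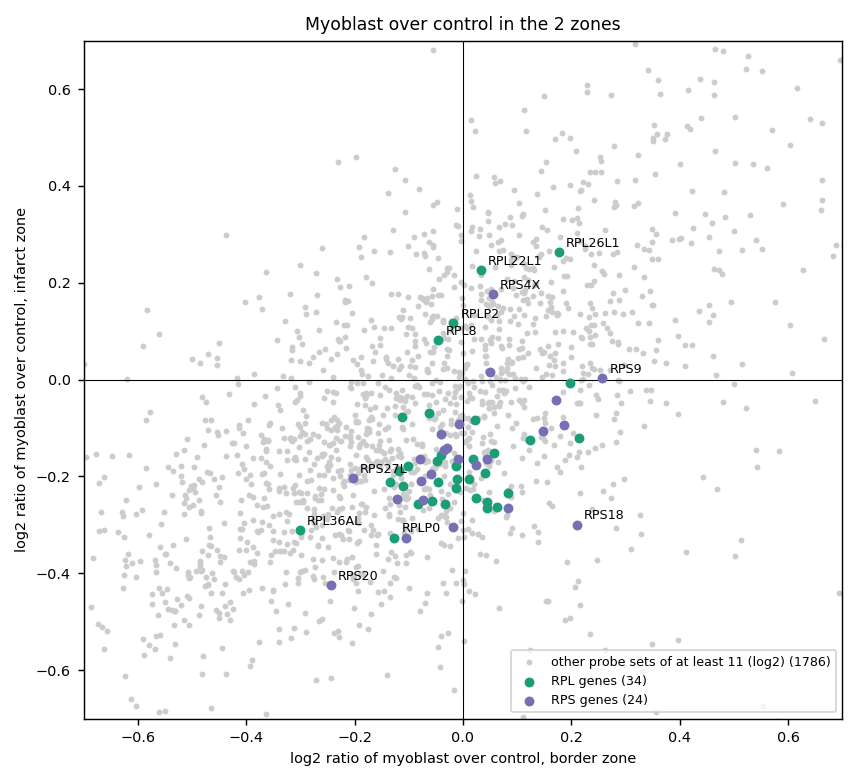
Log2 ratio of myoblast over control in the border zone (horizontal axis) and the infarct zone (vertical axis) for 34 RPL genes (green) and 24 RPS genes (purple) of at least 2048 units over 1786 other probe sets of that brightness (grey, of which 219 lie outside the axes). As deposited, the genes form a small cloud below the horizontal line, with RPS20 and RPL36AL at its lower left and RPL26L1, RPL22L1 and RPS4X above it; the height of the cloud moves to about 0 under quantile normalization.

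Among the proteins of the large subunit, 34 genes without the paralogs, the median log2 ratio was -0.19 for the infarct zone and -0.01 for the border zone as deposited, and among the 24 of the small subunit -0.16 and -0.01. The subunits thus gave like medians, and both share the dependence on scaling. As deposited, none of the large subunit genes was higher in both zones, and 3 of the small subunit genes were, RPS4X, RPS9 and RPS15. Of all probe sets 30.7% were so, and 11.1% of those of at least 8192 units. Under quantile normalization large subunit genes such as RPL29, RPL35 and RPL10A were higher in both zones. This contrast of the subunits thus depends on the scaling too.

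RPS20, which lies in the head of the small subunit, had the lowest mean ratio of the bright genes. Its signal was 28117 units with myoblasts against 33289.5 in control at the border, and 26699.9 against 35846 units within the infarct. Both myoblast arrays lay below both control arrays, and the log2 ratio was -0.24 and -0.42. RPS27A, which is made as a fusion of ubiquitin with a small subunit protein, had 27142 and 25638 units on the border and infarct myoblast arrays and 29196 and 32154 units on those of control. Its log2 ratios of -0.11 and -0.33 turned to 0.02 and 0.03 under quantile normalization. RPS29, a small zinc-binding protein mutated in some families with Diamond-Blackfan anaemia, had border zone signals of 17606 units with myoblasts and 19163 units in control, and infarct zone signals of 18073 and 21442 units, and its control infarct array was the highest.

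RPS9 had the highest mean ratio of the bright small subunit genes, with 12394 units with myoblasts against 10369 in control at the border, and 11634 against 11607 units within the infarct. The difference lay in the border zone, where the control array was low, while the infarct arrays were alike at a log2 ratio of 0.0033. RPS4X, the X-linked gene of a small subunit protein, had 13319 and 14615 units on the border and infarct myoblast arrays and 12824 and 12929.9 units on those of control. Both of its control arrays lay below both myoblast arrays, with log2 ratios of 0.05 and 0.18. RPS16 and RPS12 resembled RPS9 in having their lowest signal on the control border array: RPS16 had border zone signals of 16703 units with myoblasts and 14826 units in control, and infarct zone signals of 16013 and 16491 units. For RPS12 the signals were 18127 units with myoblasts against 15931 in control at the border, and 16927 against 18053 units within the infarct.

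RPSA, the small subunit protein also known as the laminin receptor, had 14677 and 15314 units on the border and infarct myoblast arrays and 15034 and 16928 units on those of control, within the range of its neighbours. RPS27, a zinc-finger protein of the small subunit, was higher with myoblasts for the border zone and lower for the infarct zone, with border zone signals of 17745 units with myoblasts and 16014 units in control, and infarct zone signals of 18009 and 19369 units. Its control border array was the lowest of the 4. After quantile normalization its log2 ratio was 0.19 for the border zone and 0.06 for the infarct zone, so that its direction in the infarct zone turned with the scaling. The paralog RPS27L, which is induced by p53 in other cells, had 3741 units with myoblasts against 4308 in control at the border, and 4488 against 5168 units within the infarct. It was lower with myoblasts in both zones and higher in the infarct zone in both treatments, with a log2 difference of 0.26 between zones in each. Its log2 ratio minus that of RPS27 was -0.35 for the border zone and -0.10 for the infarct zone, and -0.40 and -0.22 under quantile normalization.

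The stalk of the large subunit recruits translation factors. RPLP0, which forms its base, had 20685 and 19996 units on the border and infarct myoblast arrays and 22586 and 25077 units on those of control. Its log2 ratios of -0.13 and -0.33 were the lowest of the stalk genes. RPLP1 hardly varied, with border zone signals of 16939.8 units with myoblasts and 17684 units in control, and infarct zone signals of 17074 and 17915 units. RPLP2, which pairs with RPLP1 in the stalk, had 5694 units with myoblasts against 5764 in control at the border, and 6569 against 6060.4 units within the infarct, so that its highest signal was on the myoblast infarct array. RPL12, at the foot of the stalk, had log2 ratios of -0.05 and -0.21 (chosen for its place in the stalk). RPLP0 and RPL12 thus had the same order of the 4 arrays, and RPLP1 differed from it only in its near-equal myoblast arrays. RPLP2, the dimmest of these genes, had another order.

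RPL5 and RPL11 bind the 5S rRNA, and free RPL5 and RPL11 hold the p53 regulator MDM2. RPL11 had 21099.8 and 18193 units on the border and infarct myoblast arrays and 20454 and 21879 units on those of control. Its myoblast infarct array was the lowest, at a log2 ratio of -0.27, beside 0.04 in the border zone. RPL5 had ratios of -0.08 and -0.26 (chosen for its role). RPL3, RPL4, RPL17 and RPL8, which line the site of peptide bond formation or the exit tunnel and were chosen for that place, had log2 ratios from -0.06 to -0.01 for the border zone and from -0.25 to 0.08 for the infarct zone. RPL8 was the one of these 4 that was higher in the infarct zone. All 15 genes measured of a list linked to Diamond-Blackfan anaemia were lower with myoblasts in the infarct zone as deposited, with a median of -0.16, which lies close to the -0.18 of all 64 genes, and 8 were lower in the border zone. These counts stand beside the 49.2% and 49.7% of all probe sets and the 84.4% and 70.8% of those of at least 8192 units that were lower in these zones. After quantile normalization 6 of the 15 were lower in the infarct zone and 2 in the border zone.

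Of the other large subunit genes, RPL29 had border zone signals of 13906 units with myoblasts and 12133 units in control, and infarct zone signals of 13457 and 13521 units. It joined RPS9 in having a low control border array and near-equal infarct arrays. RPL38, known in mice for its part in the translation of Hox mRNAs, had 15987 units with myoblasts against 17539.9 in control at the border, and 17404 against 20153 units within the infarct. It was lower with myoblasts in both zones and higher in the infarct zone in both treatments under every scaling, by log2 differences as deposited of 0.20 in control and 0.12 with myoblasts. RPL26, dim on every array, had 91.5 and 84 units on the border and infarct myoblast arrays and 70.6 and 85.7 units on those of control, all under the array medians.

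Among the bright genes with RPL names, the paralogs RPL26L1 and RPL36AL had the highest and the lowest mean ratio. RPL26L1, which resembles RPL26, also had the highest of all bright genes with border zone signals of 2143 units with myoblasts and 1896 units in control, and infarct zone signals of 2407 and 2006 units. Its log2 ratios were 0.18 and 0.26, and both myoblast arrays lay above both control arrays. RPL22L1, the paralog of RPL22, had 4129 units with myoblasts against 4037 in control at the border, and 4843 against 4139.8 units within the infarct. RPL22 itself had 21348 and 21401 units on the border and infarct myoblast arrays and 22059.9 and 24033 units on those of control. The log2 ratio of RPL22L1 thus exceeded that of RPL22 by 0.08 for the border zone and 0.39 for the infarct zone, and under quantile normalization by -0.01 and 0.17, so that the order in the border zone turned. RPL36AL, a paralog of RPL36A, went the other way with border zone signals of 4952 units with myoblasts and 6102 units in control, and infarct zone signals of 5342 and 6629 units. Its log2 ratios were -0.30 and -0.31, alike in both zones. RPL7L1, a nucleolar protein that resembles RPL7, had 1337 units with myoblasts against 1508 in control at the border, and 1319 against 1566 units within the infarct. RPL7 had 23927 and 21899.8 units on the border and infarct myoblast arrays and 23628 and 24542 units on those of control, and the log2 ratio of RPL7L1 minus that of RPL7 was -0.19 and -0.08 in the border and infarct zone as deposited, and -0.28 and -0.32 after quantile normalization. RPS19BP1 had border zone signals of 618 units with myoblasts and 673 units in control, and infarct zone signals of 550.3 and 669.7 units, lower with myoblasts in both zones.

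The comparison of the infarct with the border zone was made within each treatment. In control tissue 61 of the 64 genes were higher in the infarct zone as deposited, against 50.4% of all probe sets and 85.9% of those of at least 8192 units, with a median log2 difference of 0.14. With myoblasts 38 genes were lower in the infarct zone, against 47.1% and 39%, with a median of -0.02. The control value became 0.02 under quantile normalization and -0.02 after centring on the other bright probe sets, whose own median as deposited was 0.13. The myoblast value stayed below 0 under these scalings, at -0.05 and -0.10. As deposited, the control infarct array held the highest signal for 49 of the 64 genes, against 26.2% of all probe sets and 70.8% of those of at least 8192 units, and the lowest for none of them. For 36 genes the infarct zone was higher in control and lower with myoblasts, against 21.8% and 31%.

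In the mean over treatments, 2 genes were at least 2-fold higher in the infarct zone and none 2-fold lower, against 12.8% of all probe sets either way. They were again RPS15A and RPL30, by log2 values of 1.30 and 1.13, each through the array named above. RPL37, a zinc-binding protein of the large subunit, was the only gene lower in the infarct zone in both treatments under all 4 scalings. It had 1581 units with myoblasts against 1596 in control at the border, and 1164 against 1281 units within the infarct, with log2 differences of -0.32 in control and -0.44 with myoblasts. RPL34 had a log2 difference of 0.14 in control and -0.17 with myoblasts, from 15384 and 13633 units on the border and infarct myoblast arrays and 14530.5 and 16038 units on those of control. As deposited, its order of zones differed between treatments, as did that of RPL7 and RPL11. After centring on other bright probe sets all 3 were lower in the infarct zone in both treatments, and so were RPL7 and RPL11 under quantile normalization, at -0.09 and -0.01 in control and -0.13 and -0.22 with myoblasts.

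The further probe sets of the same genes gave a check on these values. Of the 32, 22 lay above the median on all arrays. Their median log2 ratio in the mean of the zones was -0.15 as deposited, with 19 lower and none 2-fold apart. Of all probe sets 49.0% were lower and 15.5% were 2-fold apart. Of those of at least 2048 units 61.8% were lower and 2.7% were 2-fold apart. Both further probe sets of RPS18, a bright small subunit gene chosen here after its values were seen, had log2 ratios of -0.03 and -0.08 for the border zone and -0.15 and -0.18 for the infarct zone, while the one used had 0.21 and -0.30. The probe sets of this gene thus differed in the direction of the border zone ratio. The second probe set of RPLP1 had log2 ratios of 0.60 and 0.18 at a mean signal of 234 units, against -0.06 and -0.07 for the bright one. That of RPL38 had -0.60 and -0.05, and that of RPLP0 had -0.40 and -0.24. In the mean of the zones, 4 of the 10 dim further probe sets were at least 2-fold lower with myoblasts. Of all 24123 probe sets 1886 were so, and the share of dim probe sets alone was not counted. The 4 were those of RPL7, RPL34, RPS12 and RPL13A (the last chosen after its values were seen), at -1.81, -1.37, -1.28 and -2.23. The bright probe sets of these genes had -0.07, -0.08, 0.05 and -0.15.

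The other genes of protein synthesis were read from lists of their own. FAU, which makes a small subunit protein fused to a ubiquitin-like domain, had log2 ratios of -0.10 and -0.24 in the border and infarct zone, near the median ribosomal protein in the infarct zone. RACK1, a scaffold on the small subunit, had 0.01 and -0.04. Of the 6 elongation factors measured none was 2-fold apart in the mean of the zones. The share was 15.5% of all probe sets and 2.7% of those of at least 2048 units. The median of these factors was 0.08 for the border zone and -0.09 for the infarct zone. In the mean of the zones EEF1G and EIF5A were lowest, at -0.15 and -0.10, and EEF1A1, which brings the aminoacyl-tRNA to the ribosome, and EEF1E1, a partner of tRNA synthetases, were highest, at 0.09 and 0.62. The 34 initiation factors had medians of -0.05 and -0.03. The lowest in the mean of the zones were EIF5B, which joins the subunits, at -0.30 and EIF4EBP2, a repressor of cap binding, at -0.26, and the highest EIF2B2 at 0.40 and EIF4E2, a cap-binding protein, at 0.41. The 9 other mRNAs with a tract of pyrimidines at their start had medians of -0.03 and -0.13, with CCNG1 and NAP1L1 lowest at -0.22 and -0.20 and BTF3 and HNRNPA1 highest at 0.11 and 0.23.

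Of the genes that build ribosomes, 37 of the 47 biogenesis factors lay above the median of every array. The spread of their ratios was not compared with that of the brighter ribosomal protein genes. The 47 ribosome biogenesis factors had medians of -0.12 and -0.01, with 1 gene, the dim BOP1, at least 2-fold lower in the mean of the zones, and RRP9 and GRWD1 highest at 0.50 and 0.54. EMG1, the second lowest, a methyltransferase of 18S rRNA, had 656 units with myoblasts against 1200.2 units in control for the border zone and 588 against 1061 units for the infarct zone. The 12 genes of RNA polymerase I and its regulators, which make the rRNA, had medians of -0.09 and 0.05. POLR2L and POLR1A, both polymerase subunits, were lowest at -0.38 each, and POLR1B and TAF1B highest at 0.27 and 0.50. The 7 genes measured of those that signal to ribosomal protein synthesis had medians of 0.07 and -0.04, from TSC1 at -0.43, next to AKT1 at -0.0046, to TSC2 and the kinase RPS6KA1 at 0.25 and 0.38. The 58 mitochondrial ribosomal proteins, which form a separate ribosome, had medians of -0.20 for the border zone and -0.05 for the infarct zone, the reverse order of the cytosolic ones as deposited. MRPS24 of that list had 1057 units against 1681 for the border zone and 1414 against 2359 for the infarct zone. Beside it, MRPL24 was lowest at a mean of -0.92, and MRPL18 and MRPL10 were highest at 0.29 and 0.31. No member of the elongation, initiation, polymerase, signalling or pyrimidine tract lists was 2-fold apart in the mean of the zones. Of all probe sets 15.5% were, and 2.7% of those of at least 2048 units. The low counts of these lists and of the biogenesis factors were thus not read as particular to them.

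**Figure D5:**
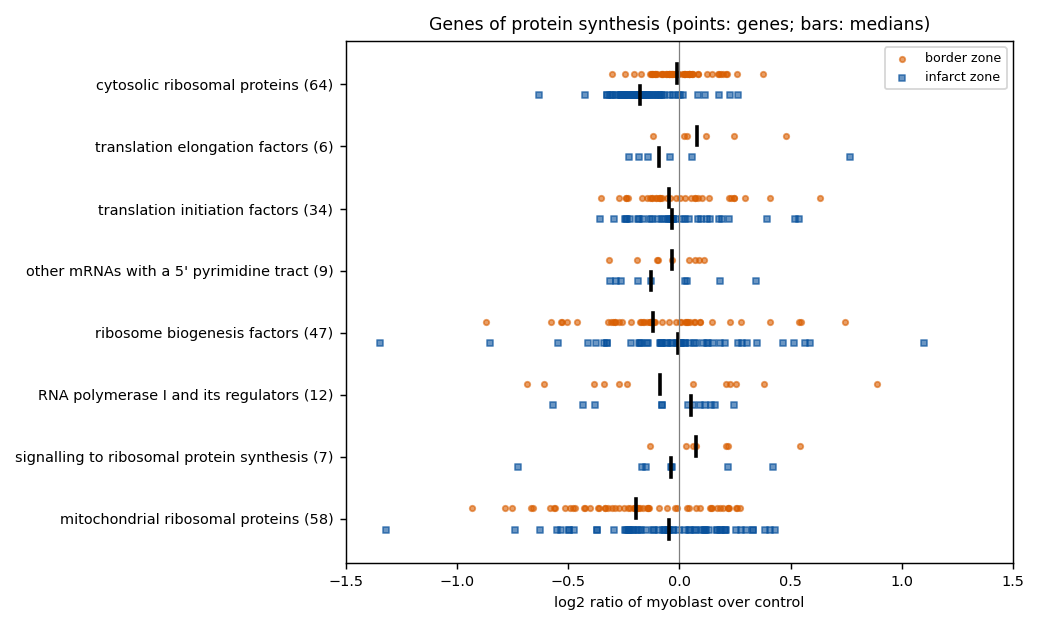
Log2 ratio of myoblast over control as deposited (horizontal axis) for the 64 cytosolic ribosomal protein genes and 7 other lists, with gene numbers in brackets, for the border zone (orange circles) and the infarct zone (blue squares); bars are medians and 3 points lie outside the axis. The cytosolic genes lie mostly close to 0, with medians of -0.01 and -0.18 that turn above 0 under quantile normalization, and the mitochondrial ones have their lower median in the border zone.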

How the data were processed

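RNA of 4 heart tissues of minipigs, 1 for each treatment and zone, was amplified with a 3′ kit and hybridized to Affymetrix Porcine Genome Arrays. The deposited values are log2 signals, which the authors made with the MAS 5.0 algorithm and which were used as deposited; 0 columns were left out. Genes were named from the platform annotation, which gives a single symbol for 10099 of the 24123 probe sets, several for 198 and none for 13826; all 64 gene IDs of the ribosomal protein genes matched RefSeq. Of the probe sets with several symbols, 8 that include a ribosomal protein were left out. Levels of different probe sets were not compared with each other as levels of RNA. The number of arrays limits the precision, and depth has no meaning here.

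Within each zone the log2 ratio of myoblast over control was taken as the difference of both arrays, and its mean over the zones was formed. Zones were compared likewise within treatment. Genes were counted as apart at 2-fold, the threshold of the study's methods, with no test. Shares over all probe sets were counted on the values as deposited only. The members, the lists of other genes and the cut-offs were chosen with earlier results of these data known. Named with values are the 10 genes with the highest and the 10 with the lowest mean ratio, the 5 highest and 5 lowest between zones, RPLP0, RPLP1, RPLP2, RPSA, the paralog pairs, and of each other list the 2 highest and 2 lowest; others are marked. Alternatives were each zone or treatment alone, arithmetic means, quantile normalization, centring on array medians, all probe sets of a gene averaged or counted, probe sets without a name suffix, a floor at the array median, the set without paralogs, 1.5-fold, and limma with treatment and zone as terms and an adjusted p of 0.05. The limit of 2048 units and the centring on other probe sets of at least 8192 units were added after the data were seen. Python 3.11.15, pandas 2.3.3, R 4.3.3 and limma 3.58.1 were used, and the steps were tested on simulated data.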

Additional observations from a re-analysis of the deposited data

Results flagged for a closer look

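The medians of the ribosomal protein genes lay on opposite sides of 0 between the zones of the 2 treatments: the log2 difference of infarct over border zone was 0.14 in control and -0.02 with myoblasts, and the myoblast value minus the control value was -0.16. With 1 array per condition the difference was not tested.

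Of the genes named with values, 3 had ratios of myoblast over control of at least 0.1 in size on opposite sides of 0 in the zones, a limit chosen after the values were seen. RPS15A had ratios of 2.43 (border) and -0.16 (infarct), a difference of -2.59 on the log2 scale at signals under the array medians. RPS27 had 0.15 and -0.11, a difference of -0.25. RPS18 had 0.21 and -0.30, a difference of -0.51. These differences were not tested.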

How the results depend on the processing

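The median ratio of myoblast over control of the 64 genes, -0.10 as deposited, kept its sign under 10 alternatives and turned to 0.0285 under quantile normalization and 0.0573 after centring on the other probe sets of at least 8192 units. The median of infarct over border zone, 0.06, turned to -0.0075 and -0.053 under these scalings and was -0.0227 on the myoblast arrays alone. These settings differ in how bright probe sets are weighed, and the cause was not tested. The count of genes higher in both zones, 5, was 32 under both scalings, 3 after centring on array medians, 8 with a floor at the array median and 3 without paralogs. The count lower in both, 35, was 11 under quantile normalization, 9 after centring on other bright probe sets and 54 with all 96 probe sets counted.

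The 2 genes at least 2-fold apart between myoblast and control became 1 with arithmetic means of the zones, 0 with the floor, 0 among genes of at least 2048 units, 0 in the infarct zone alone and 6 with all 96 probe sets counted. The 2 genes apart between zones became 0 with the floor, 0 at 2048 units, and 1 in either treatment alone. By limma with Benjamini-Hochberg adjustment 0 of the 64 genes passed in either comparison, and 0 had an unadjusted p under 0.05. Over all 24123 probe sets 0 passed, with 2125 and 1231 at an unadjusted p under 0.05. This fit has 1 residual degree of freedom, and on simulated data it called none of the changes planted, so it says nothing about stability.

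The list medians of myoblast over control are small, and many changed. For elongation factors 0.02 became -0.0053 after centring on array medians and with every probe set counted, -0.0345 with all probe sets of a gene averaged and -0.0935 in the infarct zone. For initiation factors -0.03 became -0.011, -0.0608, -0.0050 and 0.0033 under quantile normalization, centring on array medians, averaged probe sets and every probe set, and -0.0485 in the border zone. For other pyrimidine tract mRNAs -0.16 became 0.0782 under quantile normalization, 0.0175 with averaged probe sets, 0.0477 with every probe set and -0.032 in the border zone. RNA polymerase I genes turned from -0.13 to 0.0502 in the infarct zone, and signalling genes from 0.02 to -0.0037 after centring and -0.038 in the infarct zone. For biogenesis factors and mitochondrial ribosomal proteins all 7 alternatives kept the median below 0. The biogenesis median of -0.055 ranged from -0.1196 (border alone) to -0.0053 (infarct alone). The mitochondrial median of -0.105 ranged from -0.197 (border alone) to -0.049 (infarct alone). Shifts were judged against the standard deviation of the border and infarct medians. This yardstick was 0.081 and 0.105 for these lists but 0.011 for initiation factors. As it grows with the gap between zones, it cannot show which lists are more stable. No paired analysis was possible because each condition has 1 array and so no pair of replicate numbers to block on; zone was a term of the limma fit.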
